A study of Mus musculus with 60 samples.

Results

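Matricellular proteins are secreted into the extracellular matrix, where they bind cells, growth factors and structural fibres. The genes described here are 10 of them in the mouse, namely periostin (Postn), tenascin C (Tnc), thrombospondins 1 and 2 (Thbs1, Thbs2), Sparc (osteonectin), osteopontin (Spp1), matrix Gla protein (Mgp), fibronectin (Fn1) and the CCN proteins Ccn1 (Cyr61) and Ccn2 (Ctgf). They were chosen by symbol or older synonym, and each gene was read from the probe set with the highest mean. Of the 10 genes, 9 had a named probe set among the 18194 genes of the arrays and 8 were among the 12637 genes bright enough to be tested. Spp1 was not analysed here because the gene table used names no probe set for it. Ccn2 was measured but was not tested, because its single probe set was above the array median on 0 of 60 arrays.

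The RNA was from Balb/c 3T3, a cell line of embryonic mouse fibroblasts that stops growing on contact, and was measured on 60 single-colour oligonucleotide arrays. In a literature-dose set the cells received 25 µM 2-acetylaminofluorene (AAF, an aromatic amide), 0.5 µM benzo(a)pyrene (BaP, a polycyclic aromatic hydrocarbon), 50 µM 2,4-diaminotoluene (DAT, an aromatic amine) or 2 µM 3-methylcholanthrene (MCA, another polycyclic aromatic hydrocarbon), each for 24 h and for 120 h. In an IC20 set, whose concentrations were chosen for a fixed small inhibition of growth, AAF was given at 10 µM at both times, BaP at 1.5 µM for 24 h and 0.1 µM for 120 h, DAT at 700 µM for 24 h and 0.2 µM for 120 h, and MCA at 20 µM for 24 h and 0.1 µM for 120 h. The controls of each set and time received the solvent DMSO alone at 0.75%, which made 20 groups of 3 arrays. All groups are of the same line, treated when the dishes were 60 to 65% covered, so the 24 h and 120 h cells differ in time in culture as well as in time with the chemical. The labels do not say whether the 3 arrays of a group came from separate cultures, so p-values measure the spread between arrays, which may be technical.

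Periostin and tenascin C are made by activated fibroblasts during wound repair and bind integrins on the cell surface. Thrombospondins bind CD47, CD36 and integrins and are known for restraining blood vessel growth, Sparc binds collagen, matrix Gla protein restrains calcification of soft tissue, and fibronectin is a structural fibre that cells assemble on their surface. Ccn1 and Ccn2 are textbook targets of the transcription regulators YAP and TAZ with the TEAD proteins, and Ccn1 is also an early response gene of the serum response factor (SRF).

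Upstream sequences are shown for the 3 genes whose level in DMSO rose by over 2 log2 units in the literature-dose set. RefSeq (GRCm38.p6) gave the 250 bases before a transcription start for 6 of the 10 genes, and the 3 shown are from chr3:54360857-54361106 on the + strand (Postn, the downstream of 2 starts), chr4:64047016-64047265 on the - strand (Tnc, the upstream of 2 starts) and chr3:145649986-145650235 on the - strand (Ccn1). Capitals mark matches, on either strand, to TATAAA (the TATA box), GGAATG (the TEAD core) or GCGTG (the core bound by the aryl hydrocarbon receptor).
Postn: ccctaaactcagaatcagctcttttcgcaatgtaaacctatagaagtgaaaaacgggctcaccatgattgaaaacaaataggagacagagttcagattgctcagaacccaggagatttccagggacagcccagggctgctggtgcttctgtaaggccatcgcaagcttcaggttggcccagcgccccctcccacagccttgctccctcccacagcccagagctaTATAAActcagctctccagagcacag
Tnc: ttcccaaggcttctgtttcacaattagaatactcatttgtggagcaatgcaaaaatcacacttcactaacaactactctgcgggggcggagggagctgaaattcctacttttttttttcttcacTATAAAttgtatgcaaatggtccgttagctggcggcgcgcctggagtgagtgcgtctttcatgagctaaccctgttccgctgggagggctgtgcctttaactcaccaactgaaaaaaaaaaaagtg
Ccn1: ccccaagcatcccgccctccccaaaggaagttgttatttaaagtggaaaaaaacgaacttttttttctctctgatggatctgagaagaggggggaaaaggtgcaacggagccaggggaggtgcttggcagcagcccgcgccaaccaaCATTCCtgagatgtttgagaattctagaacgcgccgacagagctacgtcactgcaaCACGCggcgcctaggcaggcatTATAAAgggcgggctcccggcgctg
The Ccn1 window held a TEAD core as CATTCC 103 to 98 bases before the start, a GCGTG core as CACGC 47 to 43 bases before it and a TATA box 25 to 20 bases before it. The Postn window held a TATA box 26 to 21 bases before the start, and the Tnc window held TATAAA 126 to 121 bases before it. Among 32851 such windows of all genes, 12.642% held the TEAD core, 28.157% the GCGTG core and 12.368% TATAAA. Neither TGANTCA, the AP-1 site, nor the CArG box of SRF matched in any window of the 6 genes, against 6.749% and 1.467% of all windows. No motif searched overlapped another in these windows. A match describes the letters and is not evidence of binding.

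Fibroblast markers were bright in these cells, and those of other lineages were dim or mixed. All 8 fibroblast markers (Col1a1, Col1a2, Col3a1, Pdgfra, Pdgfrb, Vim, Thy1, S100a4) were above the array median on all 60 arrays. Of 6 macrophage markers Lyz2 was above it on 60 arrays, Csf1r on 59, Adgre1 on 29 and Cd68 on 23, and Ptprc and Itgam on 0. Of 6 epithelial markers Epcam was above it on 53, Krt8 on 13, Cdh1 on 1 and Krt18, Krt19 and Cldn4 on 0. Of 5 endothelial markers Kdr was above it on 1 and Pecam1, Cdh5, Tek and Tie1 on 0, and of 3 osteoblast markers measured Sp7 on 51, Alpl on 3 and Ibsp on 0. The arrays of the literature-dose set had trimmed mean intensities of 153 to 188 and those of the IC20 set 500 to 500, so levels are given in each set's own normalised intensity units and no test crosses the sets. The residual spread, as the median SD over genes on the log2 scale, was 0.11 in the literature-dose set and 0.22 in the IC20 set.

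All 8 genes tested were higher at 120 h than at 24 h in DMSO in the literature-dose set, and 7 of the 8, all but Mgp, were called higher in the IC20 set, where Thbs1, Sparc and Mgp had the opposite sign when arrays were centred on their median. With the probe set used for each gene, Postn and Tnc were among the 3 most changed of the 8 in both sets. In the literature-dose set Postn was 8.99-fold higher, Ccn1 5.73-fold, Tnc 4.49-fold and Thbs1 3.14-fold, while Fn1, Thbs2, Mgp and Sparc were 1.38-fold to 1.85-fold higher. A call is an adjusted p below 0.05 from a limma fit of log2(intensity + 16) over all 12637 genes, and this call is common over time: 57.7% of all genes tested were called in the literature-dose set, 29.3% higher, and 40.2% in the IC20 set, 17.8% higher. Fold changes are on that scale and understate the change of dim genes.

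Postn, whose product binds integrins and collagen, had 1802, 1217 and 1219 units in the 3 DMSO arrays of the literature-dose set at 120 h, against 103, 121 and 219 at 24 h. Its IC20 controls had 5498, 5785 and 4894 at 120 h, against 1425, 1432 and 1938 at 24 h. The times did not overlap in either set, and the log2 changes were 3.17 ± 0.18 (SE; adjusted p = 1.83e-14) in the literature-dose set and 1.76 ± 0.19 (adjusted p = 4.61e-08) in the IC20 set. Tnc, a large oligomeric protein that lessens adhesion to fibronectin, had 1926, 1709 and 1702 at 120 h, against 365, 377 and 411 at 24 h in the literature-dose set. The IC20 controls had 5546, 4933 and 4406 at 120 h, against 1213, 891 and 1143 at 24 h. Tnc rose in both sets without overlap, with log2 changes of 2.17 ± 0.066 and 2.19 ± 0.18 in the literature-dose and IC20 sets.

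**Figure D1:**
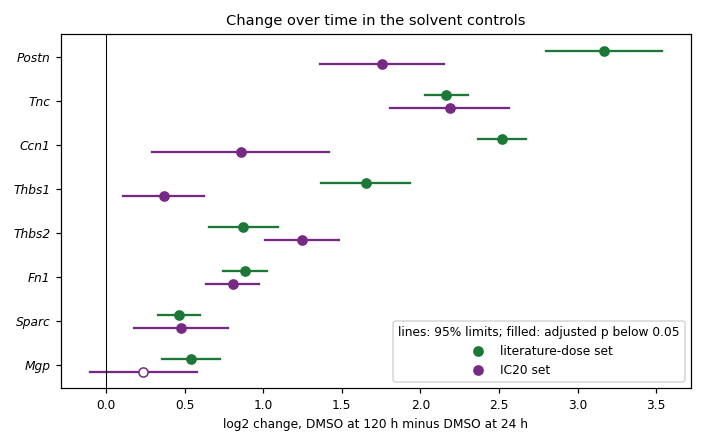
Log2 change of each gene in DMSO, 120 h minus 24 h, in the literature-dose set (green) and the IC20 set (purple), with 95% limits from the spread shared by the 30 arrays of a set. Every point lies to the right of 0 with this normalisation, though with arrays centred on their median Thbs1, Sparc and Mgp were below 0 in the IC20 set, and the open point, Mgp in the IC20 set, did not pass an adjusted p of 0.05.

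Ccn1, a heparin-binding protein that acts through integrins, had 3032, 2631 and 2683 units at 120 h, against 442, 467 and 506 at 24 h in the DMSO arrays of the literature-dose set. The IC20 values were 6965, 4291 and 3516 at 120 h, against 2143, 2591 and 3169.6 at 24 h, so 1 of the 3 later arrays lay well above the other two. The log2 changes were 2.52 ± 0.075 in the literature-dose set and 0.86 ± 0.27 (adjusted p = 0.0137) in the IC20 set. The second of these had an adjusted p of 0.129 without the 120 h replicate 1 and of 0.0706 without the 24 h replicate 1. Thbs1, a trimeric activator of latent TGF-beta, had 3185, 2703 and 2331 at 120 h, against 788, 862 and 917 at 24 h in the literature-dose set. Its values in the IC20 controls were 8795, 7280.4 and 8042 at 120 h, against 6411, 5546 and 6755 at 24 h. Thbs1 rose by 1.65 ± 0.14 on the log2 scale in the literature-dose set and by 0.37 ± 0.12 in the IC20 set (adjusted p = 0.0207), where the call was lost without the 24 h replicate 2 (adjusted p = 0.11) or the 120 h replicate 1 (adjusted p = 0.104). Thbs2, which binds matrix metalloprotease 2 for uptake by cells, averaged 1264 ± 34.4 at 120 h and 688 ± 104 at 24 h in the literature-dose set (SD, n = 3 each). Its IC20 values were 3241 ± 324 and 1354 ± 96.8 at 120 h and 24 h, and its log2 changes were 0.87 ± 0.11 and 1.25 ± 0.12 in the literature-dose and IC20 sets.

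Fn1 and Sparc were the brightest of the 9 genes, with probe sets at the 99.5 and 99.6 percentile of an array on average. Fn1 averaged 6766 ± 295 units at 120 h and 3658 ± 305 at 24 h in the literature-dose set, and 19516 ± 1300.1 and 11149 ± 479 in the IC20 set (SD, n = 3 each). Its log2 changes were 0.89 ± 0.068 and 0.81 ± 0.082 in the literature-dose and IC20 sets. The IC20 call was lost with arrays centred on their median (0.19, adjusted p = 0.331) and with the second probe set, which rose by 1.02 ± 0.41. Sparc rose less, by 0.46 ± 0.065 in the literature-dose set and 0.48 ± 0.14 in the IC20 set (adjusted p = 0.00981), where the adjusted p was 0.0956 without the 24 h replicate 3 and 0.0769 without the 120 h replicate 2. Mgp rose by 0.54 ± 0.09 in the literature-dose set, and in the IC20 set it averaged 4678 ± 94.9 at 120 h and 3982 ± 425 at 24 h, a log2 change of 0.24 ± 0.17 (95% limits -0.11 to 0.58). Ccn2 read 0.71 to 32.9 units over all 60 arrays, with a median of 5.94, and no change of it is read here.

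The size of the rise in the IC20 set depended on the scaling of the arrays. The median change of all genes there was -0.053 with quantile normalisation, 0.11 in the deposited values and -0.35 with arrays centred on their median. Centred in that way, Mgp, Thbs1 and Sparc had log2 changes of -0.40, -0.31 and -0.11, of the opposite sign, and relative to the median of all genes they changed by -0.047, 0.036 and 0.24. Fn1 and Ccn1 kept their direction in the IC20 set but lost their call when so centred, with changes of 0.19 and 0.27 (adjusted p = 0.331 and 0.434). Relative to the median of all genes these were 0.54 and 0.62. Postn, Tnc and Thbs2 kept their direction and their call under every setting in both sets. Measures of RNA quality differed with time, but not alike in the sets. The log2 ratio of 3' to 5' actin probe sets was 0.54 ± 0.12 at 120 h and 0.29 ± 0.069 at 24 h in the IC20 controls (SD, n = 3 each). In the literature-dose controls it was 0.31 ± 0.023 and 0.29 ± 0.041. The ratio of Gapdh was -0.18 ± 0.024 at 120 h and -0.28 ± 0.028 at 24 h in the literature-dose controls. In the IC20 controls it went the other way, with -0.46 ± 0.08 at 120 h and -0.32 ± 0.037 at 24 h. The summed fibroblast markers were 42631 to 45728 at 120 h and 33134 to 35095 at 24 h in the literature-dose controls, and 126056 to 139989 and 101687 to 116922 in the IC20 controls. The 6 macrophage markers summed to 467 to 551 and 398 to 464 at 120 h and 24 h in the literature-dose controls, and to 711 to 843 and 626 to 721 in the IC20 controls, with Ptprc and Itgam above the array median on 0 arrays. The part of RNA quality or of these markers in the rise was not tested.

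Where a gene had several probe sets, they gave the same direction over time with 1 exception. The 4 probe sets of Ccn1 changed by 2.52 ± 0.075, 2.63 ± 0.09, 1.65 ± 0.11 and 1.59 ± 0.12 in the literature-dose set, from the brightest to the dimmest. The same 4 changed in the IC20 set by 0.86 ± 0.27, 0.73 ± 0.27, 1.98 ± 0.24 and 1.92 ± 0.25, so that the brighter pair gave the smaller rise there and the larger rise in the other set. All of the 4 but the dimmest carry a suffix that the array's maker gives to probe sets with probes shared between transcripts. The 2 dimmer probe sets of Thbs2 rose by 1.80 ± 0.11 and 1.60 ± 0.14 in the literature-dose set, more than the 0.87 of the brightest. In the IC20 set they rose by 1.71 ± 0.15 and 2.10 ± 0.36, against 1.25 for the brightest. The dimmest probe set of Thbs2 and the 2 dimmer ones of Ccn1 rose more there than Postn (1.76). The exception was the dimmest of the 3 probe sets of Sparc, with 0.055 ± 0.16 and -0.59 ± 0.40 in the literature-dose and IC20 sets.

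**Figure D2:**
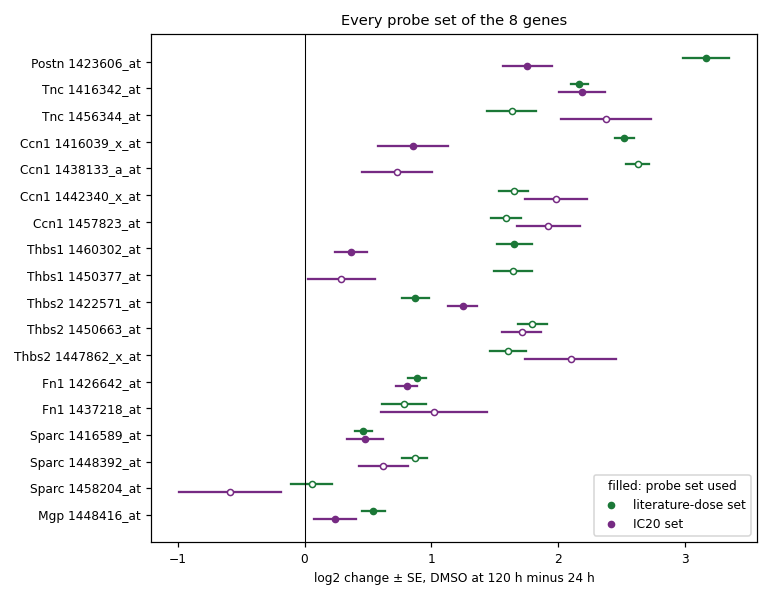
Log2 change ± SE in DMSO, 120 h minus 24 h, for every named probe set of the 8 genes, with filled points for the probe set used. The probe sets of Ccn1 fall into a brighter and a dimmer pair whose order differs between the sets.

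Treatments moved the genes in both directions, and the member they lowered most often was Postn. In the literature-dose set at 24 h, 9 of 32 gene and treatment pairs were called, 5 higher and 4 lower, against 3.18% of all gene tests in those comparisons. At 120 h the count was 18 of 32, with 4 higher and 14 lower, against 22.5% of all gene tests. For the IC20 concentrations 3 of 32 pairs were called at 24 h, all lower, against 2.9%, and 4 of 32 at 120 h, with 1 higher and 3 lower, against 1.12%. With the replicate number as a block these 2 counts were 10 and 13 of 32, against 10.4% and 7.67% of all gene tests under the same block. The second count includes Tnc and Thbs2 after 0.1 µM BaP and Postn after 0.2 µM DAT. There the same-numbered arrays correlated positively (mean 0.21 for BaP and 0.22 for DAT), but not all 3 pairs passed the limit of 0.1 set for pairing. The 4 treatments of a set and time share the same 3 DMSO arrays, so the calls within such a block are not independent. Over both sets Postn was called lower in 7 of 16 comparisons and higher in 1, Tnc was lower in 5 and higher in 1, and Thbs1 was lower in 5 and higher in 1.

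**Figure D3:**
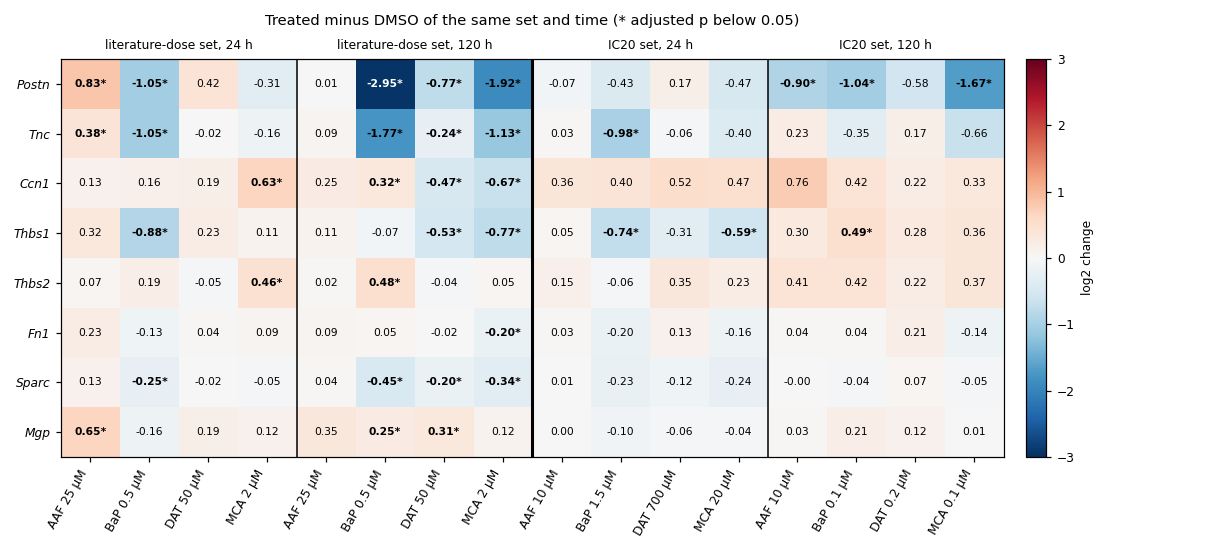
Log2 change of each gene, treated minus DMSO of the same set and time, with an asterisk where the adjusted p was below 0.05. The deepest blue cells, all at 120 h, are Postn after 0.5 µM BaP, 2 µM MCA and 0.1 µM MCA and Tnc after 0.5 µM BaP, and the IC20 set at 24 h has 3 marked cells.

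By comparison, the calls in the literature-dose set at 24 h were as follows. AAF at 25 µM raised 3 of the 8 genes, Mgp, Postn and Tnc, against 0.91% of all genes called and 0.609% called higher. With the AAF and DMSO arrays fitted alone none of these 3 calls held (adjusted p = 0.0713 for Mgp, 0.227 for Postn and 0.125 for Tnc). BaP at 0.5 µM lowered 4, Postn, Tnc, Thbs1 and Sparc, against 9.42% called and 4.91% called lower. MCA at 2 µM raised 2, Ccn1 and Thbs2, against 2.22% called and 1.08% called higher. DAT at 50 µM gave 0 calls among the 8 by limma, with 3 at an unadjusted p below 0.05, against 0.174% of all genes. At 120 h BaP lowered Postn, Tnc and Sparc and raised Ccn1, Thbs2 and Mgp (26.8% of all genes called), and MCA lowered 6 of the 8, all but Thbs2 and Mgp (39.1%, with 20.3% lower). DAT lowered Postn, Tnc, Thbs1, Ccn1 and Sparc and raised Mgp (23.7%). AAF gave 0 calls at 120 h by limma, with 2 of the 8 at an unadjusted p below 0.05 (0.356%). With so many genes called in 3 of these 120 h comparisons, a call by itself does not set a member apart there, and the sizes of change below carry the description.

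At 24 h in the IC20 set, 1.5 µM BaP lowered Tnc and Thbs1 (2.4% of all genes called, 1.2% lower) and 20 µM MCA lowered Thbs1 (1.31% called, 0.688% lower). AAF at 10 µM gave 0 calls among the 8 by limma and 0 at an unadjusted p below 0.05 (0.0237%), and DAT at 700 µM gave 0 calls and 2 (7.85%). At 120 h, Postn was lowered by 10 µM AAF (0.562% of all genes called, 0.38% lower), 0.1 µM BaP (1.44% called) and 0.1 µM MCA (2.47% called, 1.16% lower), and Thbs1 was raised by 0.1 µM BaP. DAT at 0.2 µM gave 0 calls among the 8 by limma and 3 at an unadjusted p below 0.05, against 0% of all genes.

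Postn fell after both hydrocarbons at 120 h in both sets. In the literature-dose set at 120 h it had 147, 171 and 181 units after BaP, against 1802, 1217 and 1219 in DMSO. After MCA it had 312, 382 and 379 and after DAT 784, 777 and 866, against the same DMSO arrays. None of these 3 groups overlapped DMSO, and the log2 changes were -2.95 ± 0.18 after BaP, -1.92 ± 0.18 after MCA and -0.77 ± 0.18 after DAT. BaP left Postn 7.72-fold lower than DMSO and near the 24 h DMSO level of 147 ± 62.5 (SD, n = 3). After AAF at 120 h it had 1489, 1362 and 1361, within the range of DMSO, a log2 change of 0.015 ± 0.18 (95% limits -0.36 to 0.39).

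At 24 h in the same set Postn had 68.8, 52.4 and 58.1 units after BaP and 281, 242 and 263 after AAF, against 103, 121 and 219 in DMSO. All BaP arrays were below and all AAF arrays above DMSO, with log2 changes of -1.05 ± 0.18 and 0.83 ± 0.18 for BaP and AAF. The call after AAF (adjusted p = 0.0197) was lost when any of 4 arrays was left out, AAF replicates 1 and 3 and DMSO replicates 1 and 2, with adjusted p from 0.099 to 0.163. MCA and DAT at 24 h gave 122, 139 and 77.3 and 195, 193 and 191 units, and neither passed the test.

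At 120 h in the IC20 set Postn had 1467, 1979 and 1631 units after 0.1 µM MCA and 2236, 3035 and 2594 after 0.1 µM BaP, against 5498, 5785 and 4894 in DMSO. It had 2477, 3896 and 2479 after 10 µM AAF and 3095, 4016 and 3694 after 0.2 µM DAT. All 4 treated groups lay below the DMSO arrays, and the log2 changes were -1.67 ± 0.19 for MCA, -1.04 ± 0.19 for BaP, -0.90 ± 0.19 for AAF (adjusted p = 0.0264) and -0.58 ± 0.19 for DAT, the last with an adjusted p of 0.912. The call for AAF was lost without any of 5 of the 6 arrays compared, all but AAF replicate 2, with adjusted p from 0.0548 to 0.212. It was lost as well with the arrays compared alone. With arrays centred on their median the calls for AAF and BaP were both lost, and that for MCA was kept. At 24 h Postn had 1142, 989.5 and 1425 after 1.5 µM BaP and 1091, 935 and 1429 after 20 µM MCA, against 1425, 1432 and 1938 in DMSO. Neither change, -0.43 ± 0.19 for BaP and -0.47 ± 0.19 for MCA, passed the test without a block, but with the replicate number as a block, where same-numbered arrays moved together, the adjusted p was 0.00334 for BaP and 0.00167 for MCA. AAF and DAT at 24 h gave 1594, 1304 and 1626 and 1881, 1401 and 2160.3, both around the DMSO range.

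**Figure D4:**
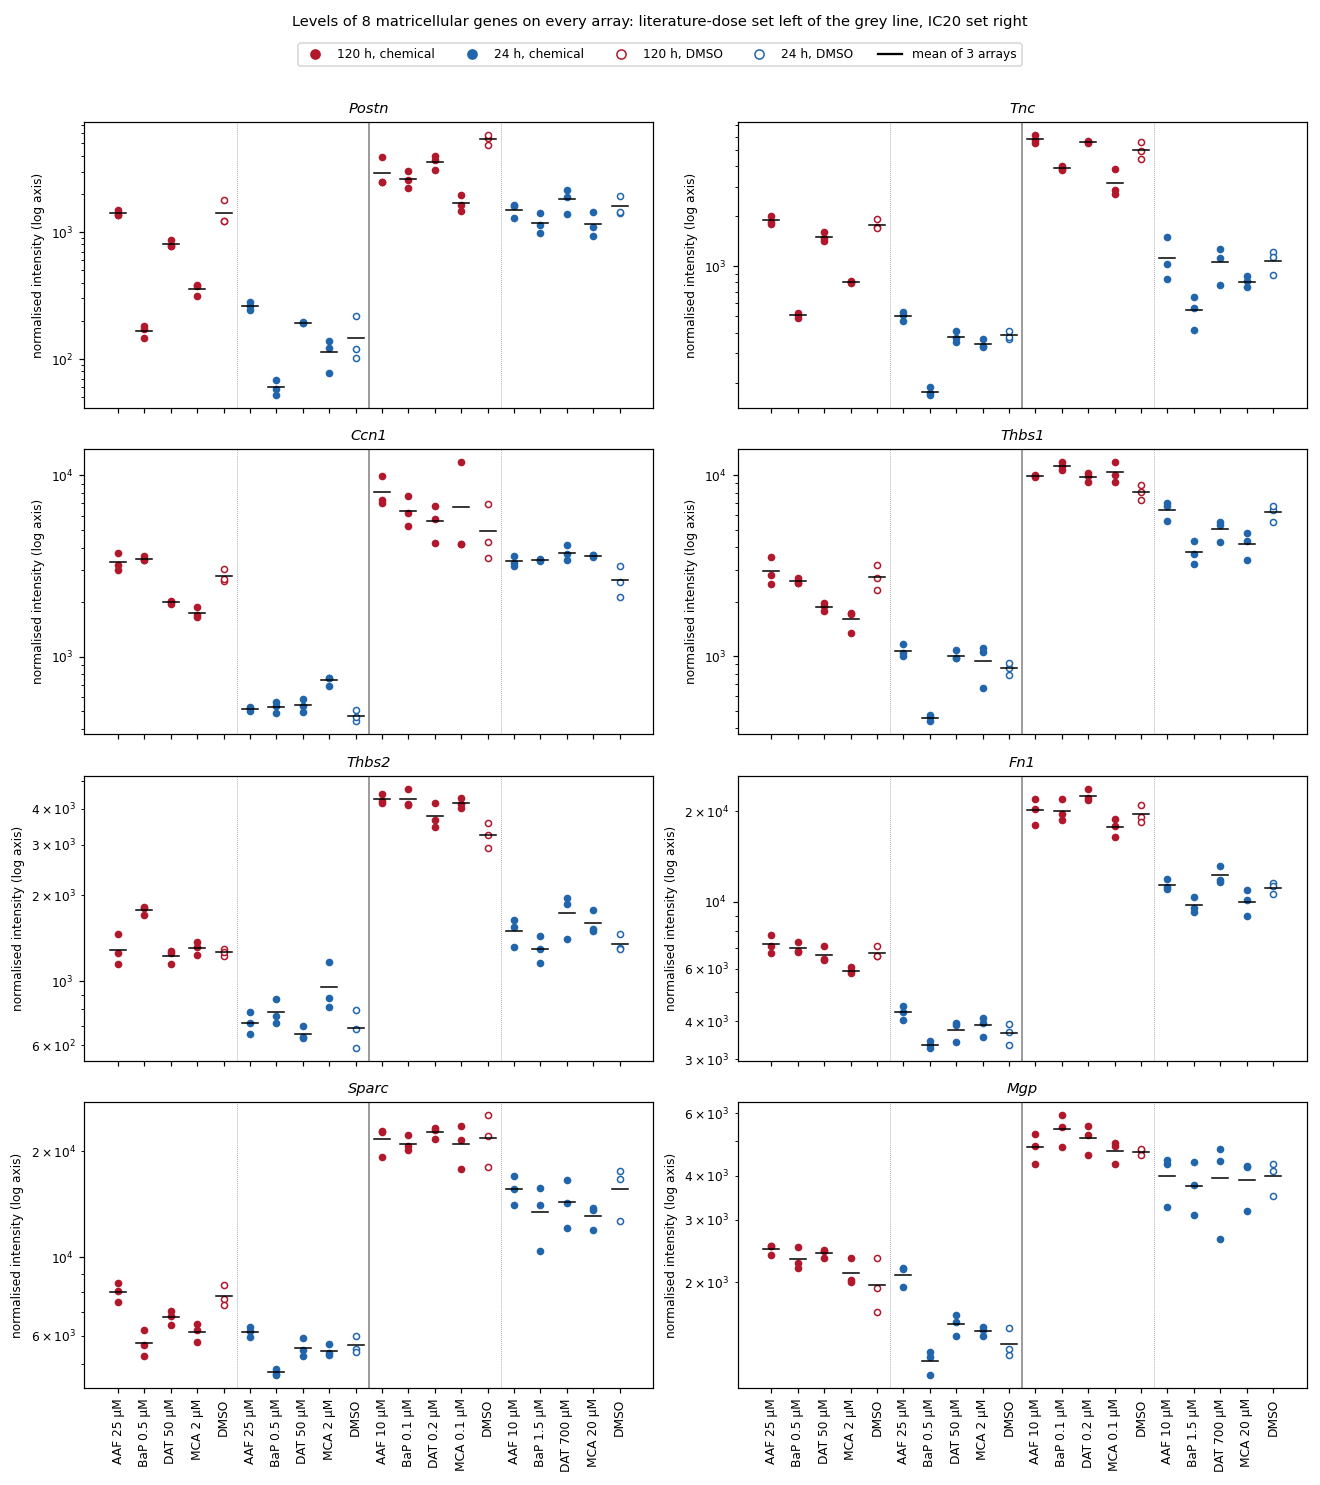
Normalised intensity of each gene on every array (points, log axis) with the mean of 3 arrays (black bar), treated groups left of DMSO within each set and time. Postn at 120 h lies below its DMSO arrays after BaP and MCA in both sets, and 1 array of 0.1 µM MCA stands far above the other two for Ccn1.

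Tnc followed Postn after the hydrocarbons in the literature-dose set. At 120 h it had 511, 526 and 490.2 units after BaP and 816, 809 and 792 after MCA, against 1926, 1709 and 1702 in DMSO. Its 3 arrays after BaP lay far below 120 h DMSO but above every 24 h DMSO array (384 ± 23.8 units, SD, n = 3), and the log2 changes were -1.77 ± 0.066 after BaP and -1.13 ± 0.066 after MCA. DAT gave 1603, 1472 and 1422, also below every DMSO array, with a change of -0.24 ± 0.066 whose adjusted p of 0.00776 became 0.0668 without DMSO replicate 1. The DAT call was lost as well in the deposited values, with arrays centred on their median, in 1 fit of all 60 arrays and with the second probe set. AAF gave 2009, 1854 and 1798, overlapping DMSO. At 24 h Tnc had 188, 172 and 169.7 after BaP and 532, 471 and 513 after AAF, against 365, 377 and 411 in DMSO. BaP lowered it by a log2 change of -1.05 ± 0.066 and AAF raised it by 0.38 ± 0.066, and the call after AAF was lost without AAF replicate 1 (adjusted p = 0.0647) or DMSO replicate 1 (adjusted p = 0.0554). It was lost as well in the deposited values (adjusted p = 0.111), with arrays centred on their median (0.0764), in 1 fit of all 60 arrays (0.689) and with the second probe set, which changed by 0.13 ± 0.19. The values after MCA, 364, 333 and 329, and after DAT, 409, 353 and 373, did not pass the test.

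Tnc in the IC20 set had 657, 416 and 564 units after 1.5 µM BaP at 24 h, against 1213, 891 and 1143 in DMSO, a log2 change of -0.98 ± 0.18 (adjusted p = 0.00281) with no overlap. That call was lost with the arrays compared alone (adjusted p = 0.0539) and with the second probe set (adjusted p = 0.776). After 20 µM MCA it had 812, 747 and 869.8, below every DMSO array, with a change of -0.40 ± 0.18 and an adjusted p of 0.43, or 0.0147 with the replicate block. AAF and DAT gave 1505, 843 and 1031 and 1269, 775 and 1116, which overlapped DMSO. At 120 h it had 3859, 2880.1 and 2731 after 0.1 µM MCA and 3998, 3766 and 3852 after 0.1 µM BaP, against 5546, 4933 and 4406 in DMSO. Both groups lay below DMSO. The change after MCA, -0.66 ± 0.18, had an adjusted p of 0.0538, which was 7.62e-05 with the replicate block and 0.0277 without MCA replicate 1. That after BaP, -0.35 ± 0.18, had an adjusted p of 0.515. AAF and DAT gave 5749, 6100.4 and 5506 and 5623, 5526 and 5586 at 120 h, and neither passed the test.

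Thbs1 changed in a different order of time and chemical. In the literature-dose set at 24 h it had 459, 437 and 472 units after BaP, against 788, 862 and 917 in DMSO, a log2 change of -0.88 ± 0.14. At 120 h it had 2524, 2707 and 2533 after BaP, against 3185, 2703 and 2331 in DMSO, and the change of -0.071 ± 0.14 did not pass the test. MCA and DAT at 120 h gave 1741, 1708 and 1345 and 1967, 1891 and 1777, all below DMSO, with changes of -0.77 ± 0.14 and -0.53 ± 0.14. So the chemicals that lowered Thbs1 at 120 h in this set were MCA and DAT, while BaP lowered it at 24 h. The IC20 arrays at 24 h had 3668, 3225 and 4338 after 1.5 µM BaP and 4313, 3393 and 4786 after 20 µM MCA, against 6411, 5546 and 6755 in DMSO. Both were below every DMSO array, with changes of -0.74 ± 0.12 after BaP and -0.59 ± 0.12 after MCA. The call after MCA was lost without MCA replicate 2 or DMSO replicate 1 or 3 (adjusted p 0.0552 to 0.115). It was lost as well with the arrays compared alone and with arrays centred on their median. With the second probe set both calls were lost. DAT at 700 µM gave a change of -0.31 ± 0.12, with an adjusted p of 0.146, or 0.00349 with the replicate block. At 120 h the direction was the other one: 0.1 µM BaP gave 10725, 11815 and 11286, against 8795, 7280.4 and 8042 in DMSO, a change of 0.49 ± 0.12 (adjusted p = 0.0427) that was lost without any of 5 of the 6 arrays, all but DMSO replicate 1 (adjusted p 0.0918 to 0.252). With the replicate block the changes of 0.36 ± 0.12 after 0.1 µM MCA and 0.30 ± 0.12 after 10 µM AAF also passed, with adjusted p of 0.00178 and 0.0116, against 0.172 and 0.402 without it.

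Thbs2 was called in 2 treatments, both higher. At 120 h in the literature-dose set it had 1821, 1797 and 1707 units after BaP, against 1229, 1298 and 1263 in DMSO, so that BaP raised Thbs2 by 0.48 ± 0.11 while it lowered Postn and Tnc in the same arrays. At 24 h it had 879, 812 and 1170.4 after MCA, against 795, 682 and 587 in DMSO. That change of 0.46 ± 0.11 (adjusted p = 0.0153) lost its call without MCA replicate 3 or DMSO replicate 2 or 3 (adjusted p 0.0538 to 0.176). Thbs2 in the IC20 set had log2 changes of 0.22 to 0.42 in the 4 treatments at 120 h, none called without a block. With the replicate block the adjusted p was 0.000843 for AAF and 0.00136 for MCA at 120 h (0.126 and 0.107 without it), and 0.00113 for 700 µM DAT and 0.0497 for 20 µM MCA at 24 h (0.0658 and 0.496 without it). Without DAT replicate 2 the 700 µM DAT change of 0.35 ± 0.12 had an adjusted p of 0.00949.

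Ccn1 rose early and fell late after MCA. At 24 h in the literature-dose set it had 769, 761 and 693 units after MCA, against 442, 467 and 506 in DMSO, a log2 change of 0.63 ± 0.075. At 120 h it had 1699, 1880.1 and 1653 after MCA and 2035, 2006 and 1951 after DAT, against 3032, 2631 and 2683 in DMSO. Both groups were below DMSO, with changes of -0.67 ± 0.075 and -0.47 ± 0.075 for MCA and DAT. BaP at 120 h gave 3419.9, 3406 and 3612, above DMSO, a change of 0.32 ± 0.075. No change of Ccn1 was called in the IC20 set, and its arrays spread widely, for example 11830.01, 4164 and 4202 after 0.1 µM MCA, against 6965, 4291 and 3516 in DMSO at 120 h. With the replicate block, 10 µM AAF at 120 h (0.76 ± 0.27) and 700 µM DAT at 24 h (0.52 ± 0.27) had adjusted p of 0.00408 and 0.0202, against 0.298 and 0.296 without it.

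Among the structural and calcification-linked genes, Sparc fell after BaP, MCA and DAT at 120 h in the literature-dose set. It had 6242, 5658 and 5252 units after BaP and 6220.4, 6488 and 5772 after MCA, against 8359, 7637 and 7357 in DMSO, without overlap. The log2 changes were -0.45 ± 0.065 after BaP, -0.34 ± 0.065 after MCA and -0.20 ± 0.065 after DAT, the last lost without DMSO replicate 1 (adjusted p = 0.151) or DAT replicate 3 (adjusted p = 0.103). At 24 h BaP gave Sparc a log2 change of -0.25 ± 0.065 (adjusted p = 0.0118), with an adjusted p of 0.0596 without DMSO replicate 1. That call was lost as well with the second probe set and in 1 fit of all 60 arrays. Fn1 was the steadiest of the 8, with -0.20 to 0.23 over all 16 treatments. Its 1 call was the fall of -0.20 ± 0.068 after MCA at 120 h (adjusted p = 0.0233), which its second probe set did not share (0.072 ± 0.17) and which was lost without DMSO replicate 1 or MCA replicate 2 or 3 (adjusted p 0.0577 to 0.111). With the replicate block Fn1 after AAF at 24 h (0.23 ± 0.068) had an adjusted p of 0.0102, against 0.112 without it.

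Mgp was raised by AAF at 24 h in the literature-dose set, with 2175, 1945 and 2189 units after AAF, against 1242, 1293 and 1484 in DMSO, a log2 change of 0.65 ± 0.09. At 120 h the DMSO arrays themselves spread, with 2337, 1924 and 1648 units. DAT (0.31 ± 0.09) and BaP (0.25 ± 0.09) were called higher than these. The call after DAT was lost without DMSO replicate 3 (adjusted p = 0.147), and that after BaP without DMSO replicate 2 or 3 or BaP replicate 2 or 3 (adjusted p 0.0571 to 0.318). Without DMSO replicate 1, in contrast, Mgp was called higher after AAF (adjusted p = 0.00358) and MCA (adjusted p = 0.0259) at 120 h. The change after AAF at 120 h was 0.35 ± 0.09, with an adjusted p of 0.117, or 0.0278 with the replicate block. No treatment of the IC20 set moved Mgp or Sparc past the test.

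Fibroblast markers and RNA quality moved along with some of these results. After BaP at 120 h in the literature-dose set the 8 fibroblast markers summed to 32830.5 to 34909 and after MCA to 37051 to 39119, against 42631 to 45728 in DMSO. The log2 3' to 5' ratio of actin was 0.44 ± 0.06 after BaP, 0.30 ± 0.032 after MCA and 0.31 ± 0.023 in DMSO at 120 h (SD, n = 3 each). The part of either in the changes was not tested. In a bulk sample fewer cells of a kind and less RNA per cell cannot be told apart.

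The same concentration was given for both times in 5 treatments, which allows the response at 120 h to be tested against that at 24 h. In the literature-dose set the Postn response was lower at 120 h after all 3 chemicals other than AAF. The difference, 120 h response minus 24 h response, was -1.90 ± 0.26 for BaP, -1.61 ± 0.26 for MCA and -1.19 ± 0.26 for DAT. Of the 8 genes, 4 differed for BaP, against 8.51% of all genes, 7 for MCA, all lower at 120 h, against 28.2% (13.4% lower), and 3 for DAT, against 8.21%. AAF gave 0 calls by limma at 25 µM (3 at an unadjusted p below 0.05, 0.0554% of all genes called) and at 10 µM (1 and 0%). The Tnc response became lower for BaP (-0.72 ± 0.094) and MCA (-0.97 ± 0.094). Thbs1 differed in opposite directions, with a higher response at 120 h for BaP (0.81 ± 0.20) and a lower one for MCA (-0.88 ± 0.20) and DAT (-0.76 ± 0.20). The Thbs1 call for DAT was lost without DMSO replicate 1 of 120 h (adjusted p = 0.0505). With a second probe set the calls of Tnc for BaP and MCA and of Thbs1 for BaP were lost. Ccn1 had the second largest shift for MCA, -1.30 ± 0.11, since it was above DMSO at 24 h and below it at 120 h. These are differences of differences, so they share the DMSO arrays of both times.

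**Figure D5:**
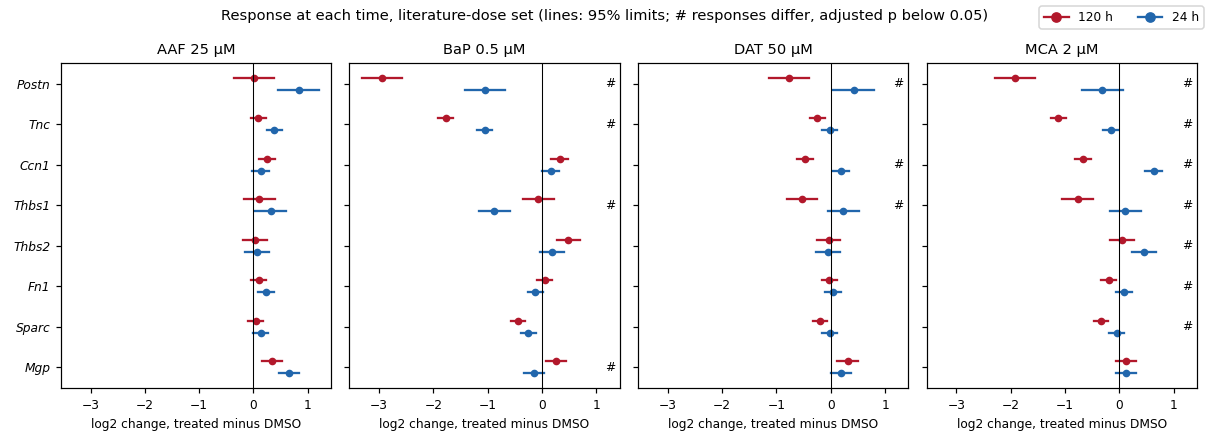
Log2 change, treated minus DMSO, at 120 h (red) and 24 h (blue) in the literature-dose set, with 95% limits and a # where the responses differed at an adjusted p below 0.05. The red points for Postn lie left of the blue ones in all 4 panels, and the gap for AAF did not pass the test.

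BaP and MCA, both polycyclic aromatic hydrocarbons, were given at the same concentration and time once, 0.1 µM for 120 h, and this was the single pair of compounds compared. Postn had 2236, 3035 and 2594 units after BaP and 1467, 1979 and 1631 after MCA, without overlap. The log2 difference, BaP minus MCA, was 0.63 ± 0.19 (95% limits 0.23 to 1.02), with an adjusted p of 0.593, or 0.000427 with the replicate block. Among the 8 genes 0 passed the test by limma, with 2 at an unadjusted p below 0.05, against 0.0791% of all genes called. For Tnc the difference was 0.31 ± 0.18 (95% limits -0.069 to 0.69), and for Thbs1 it was 0.13 ± 0.12 (95% limits -0.13 to 0.39). At the literature concentrations the doses differ, 0.5 µM BaP and 2 µM MCA, and Postn at 120 h averaged 166 ± 17.5 and 358 ± 39.8 units after them (SD, n = 3 each).

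The order of the 10 groups within a set shows which levels were distinct. For Postn in the literature-dose set AAF and DMSO at 120 h overlapped at the top, followed by DAT and then MCA at 120 h, each clear of the next. AAF at 24 h came next, then DAT at 24 h, BaP at 120 h, DMSO at 24 h and MCA at 24 h. The DMSO arrays at 24 h overlapped DAT at 24 h, BaP at 120 h and MCA at 24 h. BaP at 24 h was clear of all others at the bottom. For Tnc in that set BaP at 120 h overlapped AAF at 24 h, and the other 120 h groups were above every 24 h group. The DMSO arrays at 120 h had the highest Postn of the IC20 set, while MCA at 120 h overlapped the 24 h groups of DAT, DMSO and AAF.

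Relatives of these genes in the same families were called over time about as often as all genes. Of 24 related matricellular genes 16 were tested, and over time in DMSO 6 higher and 3 lower were called in the literature-dose set and 4 higher and 3 lower in the IC20 set, beside 57.7% and 40.2% of all genes, with median changes of 0.26 and 0.25, against 0.0017 and -0.053 for all genes. Sparcl1, a relative of Sparc known as hevin, rose by 3.37 ± 0.16 and 2.15 ± 0.19 in the literature-dose and IC20 sets. Ccn5, a CCN protein without the C-terminal domain of the others, went the other way with -1.91 ± 0.16 and -2.12 ± 0.14. After BaP at 120 h in the literature-dose set 3 higher and 5 lower were called (26.8% of all genes), among them Sparcl1 (-2.58 ± 0.16), Matn2, a filament-forming matrilin (-1.44 ± 0.085), and Ccn5 (1.81 ± 0.16). For MCA the counts were 4 higher and 7 lower (39.1%), with Ecm1 (1.66 ± 0.11), Ccn3 (1.40 ± 0.16) and Sparcl1 (-1.34 ± 0.16) the most changed. For DAT they were 4 higher and 3 lower (23.7%), led by Dmp1, a matrix protein of bone and dentin (1.84 ± 0.17), Ccn3 (1.18 ± 0.16) and Ecm1 (1.09 ± 0.11). At 120 h in the IC20 set, 0.1 µM MCA gave 1 higher and 5 lower (2.47%), with Ccn5 at 1.74 ± 0.14 and Sparcl1 at -1.31 ± 0.19, and 0.1 µM BaP gave 1 higher and 2 lower (1.44%), with Ccn5 at 1.21 ± 0.14 and Sparcl1 at -1.01 ± 0.19. The 3 literature-dose treatments at 24 h other than DAT, and AAF at 120 h, had 1 or 2 calls each, beside 0.356% to 9.42% of all genes. DAT at 24 h had 0 by limma (0.174%). The other IC20 treatments had 0 to 3, beside 0% to 7.85%, with the 3 after 700 µM DAT (7.85%).

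Receptors for these proteins were called no more often over time than all genes. Of 16 receptor genes 11 were tested, and over time in DMSO 4 higher and 1 lower were called in the literature-dose set and 4 higher and 0 lower in the IC20 set, beside 57.7% and 40.2% of all genes. Lrp1, the uptake receptor for thrombospondin complexes, rose by 1.56 ± 0.15 and 1.81 ± 0.22, and the integrin subunits Itgb5 and Itgav, which pair to bind periostin and Ccn1, rose by 0.79 ± 0.10 and 0.50 ± 0.069 in the literature-dose set. Cd44, the hyaluronan and osteopontin receptor, rose by 1.14 ± 0.076 after MCA and 0.68 ± 0.076 after DAT at 120 h in the literature-dose set, and by 0.63 ± 0.09 after 0.1 µM MCA in the IC20 set. After MCA at 120 h Lrp1 (-0.66 ± 0.15) and Itgb5 (-0.53 ± 0.10) fell, among 2 higher and 3 lower (39.1% of all genes called). After BaP at 120 h 3 higher and 1 lower were called (26.8% of all genes), with Itgb3 at -0.43 ± 0.13 and Cd47 at 0.30 ± 0.08. The other treatments called 0 to 2 of the 11, beside 0% to 23.7% of all genes. Those with 2 were BaP at 24 h (9.42% of all genes) and DAT at 120 h (23.7%) in the literature-dose set and 700 µM DAT (7.85%).

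Genes linked to YAP, TEAD and SRF, of which 23 of 24 were tested, included Ccn1's known regulators and co-targets. Over time in DMSO 17 higher and 3 lower were called in the literature-dose set and 10 higher and 3 lower in the IC20 set, beside 57.7% (29.3% higher) and 40.2% (17.8% higher) of all genes. The median changes were 0.45 and 0.18, against 0.0017 and -0.053 for all genes. Myl9, a myosin light chain of contractile cells, rose by 2.38 ± 0.13, Fhl2, a cofactor with LIM domains, by 1.60 ± 0.066 and Srf itself by 1.12 ± 0.074 in the literature-dose set. In the IC20 set Tead4 (-1.61 ± 0.25) and Ankrd1, a YAP target (-1.05 ± 0.21), were lower at 120 h and F3, tissue factor (0.89 ± 0.11), was higher. After MCA at 120 h in the literature-dose set 2 higher and 12 lower were called (39.1% of all genes, 20.3% lower), with Myl9 at -2.16 ± 0.13, Amotl2 at -0.84 ± 0.093 and Wwtr1, which encodes TAZ, at 1.06 ± 0.078. After DAT 2 higher and 10 lower were called (23.7% of all genes), with Myl9 at -1.06 ± 0.13 and F3 at -0.73 ± 0.11. After BaP, where Ccn1 was raised, 7 higher and 4 lower were called (26.8% of all genes). The median change of the list was 0.046, against -0.014 for all genes. The 3 most changed were all among the lower ones, Myl9 at -1.09 ± 0.13, Fhl2 at -0.76 ± 0.066 and Vcl, vinculin, at -0.66 ± 0.068. BaP at 24 h in the literature-dose set called 0 higher and 5 lower (9.42% of all genes, 4.91% lower), with Myl9 at -0.49 ± 0.13 and Fhl2 at -0.46 ± 0.066. The other treatments called 0 to 3 of the 23, beside 0% to 7.85% of all genes. The highest count, 2 higher and 1 lower, was after 0.1 µM MCA in the IC20 set (2.47% of all genes).

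The genes most like Postn over the 20 groups, by Pearson's correlation of group means with each set centred on its own mean, were Sparcl1 (0.965), Ubtd2 (0.951), Hmgn3 (0.949), Fmod, fibromodulin (0.946), and Rab33b (0.940). Those most like Ccn1 were Arhgap23 (0.965), Foxj3 (0.961), 9630050P21Rik (0.957), Atxn1 (0.956) and Kctd18 (0.946). The groups share arrays' normalisation and the step between 24 h and 120 h, so these values describe likeness and carry no test.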

How the data were processed

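Each of 45101 probe sets had 1 deposited intensity on a linear scale on each of 60 arrays. The submitters' processing notes name GCOS, and the scaling target and summarisation are not given in the sources used here. Gene names came from the platform annotation, brought up to date by gene identifier. It gave 34958 probe sets 1 symbol and 932 several, which were left out, and 9211 are unlisted and stay unnamed. A gene was tested if its brightest probe set was above the array median on at least 3 arrays. Values were log2(intensity + 16), quantile normalised within each set, and printed levels are these values turned back to intensity. Each set was fitted alone in limma 3.58.1 (R 4.3.3) as 10 group means with 20 residual degrees of freedom and a mean-variance trend. Tests were two-sided, and p-values were adjusted by the method of Benjamini and Hochberg over 12637 genes. The fit was tested on simulated data.

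The genes, lists, tests and rule for naming were chosen with earlier results of these data known. All members are named, with at most the 3 most changed called genes of each list per comparison and the 5 genes most like Postn and Ccn1. Replicate numbers in the labels run from 1 to 3. Their pairing was judged from the correlation of deviations from group means, and all 3 pairs passed 0.1 in 14 of 19 comparisons. The mean was 0.046 to 0.47 for the same number and -0.23 to -0.013 for others. The deviations of a group cancel out, so the values for others follow largely from those for the same number and add no separate evidence. Beside a result a blocked p is printed only in the 14 comparisons, and calls made by the block alone in the other comparisons are listed at the end. Alternatives were a single fit of 60 arrays, a fit of the arrays compared, no further normalisation, median centring, constants of 1 and 64, no filter, the replicate block, a second probe set, single arrays left out and, chosen after seeing the data, normalisation over both sets.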

Additional observations from a re-analysis of the deposited data

Results flagged for a closer look

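The tests of the 120 h response against the 24 h response at the same concentration picked out 14 differences, in 7 of the 8 genes for MCA, 4 for BaP and 3 for DAT, all in the literature-dose set. Each value is a log2 difference, 120 h response minus 24 h response, with its SE from limma. Postn, Tnc and Thbs1 differed for MCA by -1.61 ± 0.26, -0.97 ± 0.094 and -0.88 ± 0.20, and Ccn1 by -1.30 ± 0.11. Smaller differences for MCA were -0.41 ± 0.15 for Thbs2, -0.29 ± 0.092 for Sparc and -0.28 ± 0.096 for Fn1, and their calls were lost in 8, 4 and 6 of 12 omissions of a single array. For BaP the differences were -1.90 ± 0.26 for Postn, -0.72 ± 0.094 for Tnc, 0.81 ± 0.20 for Thbs1 and 0.41 ± 0.13 for Mgp, the last lost in 8 of 12 omissions. For DAT they were -1.19 ± 0.26 for Postn, -0.76 ± 0.20 for Thbs1 and -0.66 ± 0.11 for Ccn1. With a second probe set the calls of Tnc and Thbs1 for BaP and of Tnc and Fn1 for MCA were lost. The Postn difference for 25 µM AAF, -0.81 ± 0.26, had an adjusted p of 0.351, and of 0.0312 without the 24 h DMSO replicate 3.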

How the results depend on the processing

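Of 63 called values of the members, 31 kept their call and direction under every alternative and every omission of 1 array. These include all 8 changes over time in the literature-dose set, the changes of Postn, Tnc and Thbs2 over time in the IC20 set, those of Postn and Tnc after BaP at both times and after MCA at 120 h in the literature-dose set, and that of Postn after 0.1 µM MCA. With 1 fit of all 60 arrays 16 of the 63 lost their call, with a fit of the arrays compared 14, with arrays centred on their median 14 and 2 reversed, with a second probe set 12 and 2 reversed, with the deposited values 9 and without the filter 4. The constants 1 and 64, the replicate block and normalisation over both sets lost none. Reversed were, with arrays centred on their median, Thbs1 (-0.31) and Sparc (-0.11) over time in the IC20 set, and, with a second probe set, Fn1 after MCA at 120 h (0.072) and in its difference between the times (0.13). The cause was not tested.

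The number called over time was 8 in the literature-dose set under every setting, beside 41% to 61.3% of all genes. In the IC20 set it was 7 (40.2%), or 5 with the deposited values (44.2%), 5 with a second probe set (40.2%) and 3 with arrays centred on their median (42.3%). Shares in percent are of all gene tests called under the same setting. At 24 h in the literature-dose set it was 9 (3.18%), or 5 with 1 fit of all 60 arrays (0.946%) and 5 with the arrays compared alone (1.44%), and at 120 h it was 18 (22.5%), or 11 with 1 fit (11.6%). In the IC20 set at 24 h it was 3 (2.9%), or 1 with the arrays compared alone (1.35%), 0 with a second probe set by limma (7 of 32 at an unadjusted p below 0.05) and 10 with the replicate block (10.4%). At 120 h it was 4 (1.12%), or 9 with 1 fit (3.39%), 2 with the arrays compared alone (0.249%), 1 with arrays centred on their median (0.352%) and 13 with the replicate block (7.67%). Differences between the times numbered 14 (8.99%), or 9 with 1 fit (3.57%). The comparison of BaP with MCA had 0 calls, or 1, Postn, with the replicate block. Omitting single arrays gave 8 to 8 and 5 to 7 calls over time in the literature-dose and IC20 sets, 6 to 9 and 16 to 18 for the literature-dose treatments at 24 h and 120 h, 2 to 4 and 2 to 5 for the IC20 treatments, 10 to 14 for the differences and 0 to 0 for BaP with MCA. In comparisons where not all 3 same-numbered pairs passed a correlation of 0.1, the block called Tnc and Thbs2 after 0.1 µM BaP (adjusted p = 0.0282 and 0.000492) and Postn after 0.2 µM DAT (adjusted p = 0.00675). The block changed no other call than those named here and in the results. The median residual SD over genes was 0.22 in the IC20 set and 0.11 in the literature-dose set, and 3 arrays a group limit the precision in both.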
